A study of Mus musculus with 12 samples.

Results

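Cultures of mouse glioblastoma from the C/tv-a line (mGC3_CNP, 3 arrays) were compared with neural stem cell (NSC) cultures (3 arrays), using 6 of the 12 arrays of the study directly and the other 6 to ask whether a change was larger, smaller or opposite in the other tumour groups. Members were chosen by the labels for the arrays and by the annotation for the genes. All 21780 of 28270 probe sets that carry exactly 1 gene symbol were tested, with no choice by measured value.

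The mGC3_CNP cultures came from C/tv-a Arf-/- mice, mGC1_GFAP from G/tv-a Arf-/- mice and mGC2_NES from N/tv-a Arf-/- mice, with 3 biological replicates each. Tumours had been raised by placing DF-1 chicken cells that release RCAS-PDGFB-HA, an avian retrovirus carrying PDGFB, into the adult brain. The NSC cultures were grown from the subventricular zone of adult mice, 1 each from the C/tv-a, N/tv-a and G/tv-a lines, also Arf-/-. No culture was treated, and all were grown adherently under stem cell conditions. The loss of Arf is thus common to both sides, while PDGFB virus and tumour growth separate them. All mGC3_CNP cultures are from 1 mouse line, so the promoter that drove tv-a and the line cannot be told apart, and the NSC mean mixes 3 lines. The labels do not say whether the replicates came from separate animals, and the p-values cover only how these cultures varied. Below, mGC3_CNP values are given in the order of replicates 1, 2 and 3, and NSC values in the order C/tv-a, N/tv-a and G/tv-a.

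In tv-a mice only cells that make the viral receptor can be infected, and a cell type promoter decides which cells those are. Cnp encodes a myelin-associated phosphodiesterase that is made by cells of the oligodendrocyte lineage, from precursors to myelinating cells. PDGF is the main growth signal for oligodendrocyte precursors, which carry its receptor Pdgfra, and neural stem cells of the subventricular zone instead depend largely on EGF receptor and Notch signals. Oligodendrocyte precursors also carry the transcription factors Sox10, Olig1 and Olig2 and the NG2 proteoglycan Cspg4.

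Values are log2 expression summaries, and differences are log2 differences ± standard error from limma. A difference was called at a Benjamini-Hochberg adjusted p under 0.05 over all 21780 probe sets. Spermatid transcripts that brain cells should lack read up to 7.42. A called difference whose lower mean lies at or below 7.42 is given as "at least", and such differences have no order among themselves. Array medians lay between 7.60 and 7.66. With 3 arrays a group, precision is limited by that number. The mGC3_CNP replicate 1 array stood apart from the others of its group, and the counts below are therefore also given without it. Its mean Euclidean distance to its own group was 45.5, against 37.3 to 40.3 for the other tumour arrays. To the mGC1_GFAP and mGC2_NES arrays it was 51.3 and 51.2, against 42.5 to 47.4 for replicates 2 and 3. Such distances were not unusual between groups, since the mGC1_GFAP arrays lay 49.1 to 55.7 from the mGC2_NES arrays. Y-linked transcripts were near background in all 3 mGC3_CNP cultures and in the C/tv-a NSC culture, and were read in the other NSC cultures and in 4 of the 6 other tumour arrays. Both comparisons are thus unbalanced by sex, and its part in the results was not tested. The sex marker genes themselves (Xist and Y-linked genes) are not reported, while other X-linked genes are.

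Against NSC, the mGC3_CNP cultures had higher levels of several receptor and transcription factor genes of oligodendrocyte precursors. Many stem cell and astrocyte genes were lower than in NSC, though not all of them were low in level. Pdgfra, the PDGF receptor, read 13.34, 13.43 and 13.47 in mGC3_CNP and 9.59, 9.73 and 9.42 in NSC. It rose by 3.83 ± 0.08 (limma adjusted p = 7.73e-11). Sox10 read 12.59, 12.65 and 12.58 against 8.03, 8.21 and 8.12, a rise of 4.49 ± 0.06 (adjusted p = 4.94e-12). In both genes every mGC3_CNP array lay above every NSC array. The neuregulin receptor Erbb3 read 12.57, 12.56 and 12.31 against 6.44, 6.55 and 6.71, and rose by at least 5.91 ± 0.11. The EGF receptor gene Egfr read 6.33, 6.31 and 6.32 in mGC3_CNP, all within the range of transcripts taken as absent, and 11.84, 11.40 and 12.06 in NSC. It fell by at least 5.45 ± 0.13 (adjusted p = 2.49e-10).

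In all, 6603 of 21780 probe sets (6172 genes) were called between mGC3_CNP and NSC, which is 30.3% of those tested. Of these, 3235 were higher (14.9% of all) and 3368 lower (15.5% of all) in mGC3_CNP. Before adjustment, 8392 probe sets had p under 0.05. Calls with a change of 2-fold or more numbered 858 higher and 741 lower. No array of one group entered the range of the other for 6472 of the called probe sets, and for 42.4% of all probe sets. For 1577 called probe sets the difference is a lower bound, and for 710 both group means lay in the range of absent transcripts, so that presence on either side was not shown. Without mGC3_CNP replicate 1, 6149 probe sets were called, of which 5678 were among the 6603.

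Cnp itself, whose promoter defines the line, read 12.38, 12.53 and 12.38 in mGC3_CNP and 11.71, 11.67 and 11.87 in NSC. It rose by 0.68 ± 0.19 (adjusted p = 0.0158), and the groups did not overlap. The call was lost without the N/tv-a NSC culture (adjusted p = 0.0517) and without mGC3_CNP replicate 2 (adjusted p = 0.056). Cnp differed from NSC by 0.75 in mGC1_GFAP and by 0.39 in mGC2_NES, and its level in mGC3_CNP differed from the mean of those groups by 0.11 (95% interval -0.24 to 0.46, adjusted p = 0.886). The promoter gene of the line was thus not read at a called higher level in mGC3_CNP than in the other tumours.

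The promoter genes of the other lines were lower in mGC3_CNP than in NSC. Nes, an intermediate filament gene of progenitors, read 9.89, 10.32 and 10.52 against 12.38, 12.18 and 12.15, and fell by 2.00 ± 0.18. Gfap, the astrocyte filament gene, read 6.27, 6.70 and 6.69 against 8.43, 7.71 and 7.55, and fell by at least 1.34 ± 0.20. Both groups were fully separated in both genes. Pdgfb read 8.61 or more in each mGC3_CNP array and 8.01, 7.88 and 7.56 in NSC, and rose by 1.01 ± 0.12, and whether its probe set also reads the viral transcript was not tested. Cdkn2a, the locus of Arf, read 8.26, 8.69 and 8.51 against 7.79, 7.92 and 7.96. Its difference of 0.60 ± 0.21 missed the threshold (adjusted p = 0.0528) and passed in 8 alternatives, with an adjusted p of 0.00889 (only the 6 arrays compared) to 0.0451. Its neighbour Cdkn2b, a CDK inhibitor gene, read 8.39, 8.08 and 9.58 against 9.07, 9.51 and 8.93, so that the groups overlapped (difference -0.49 ± 0.34, adjusted p = 0.34). Without mGC3_CNP replicate 3 its difference was -0.93 and was called (adjusted p = 0.0178).

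**Figure D1:**
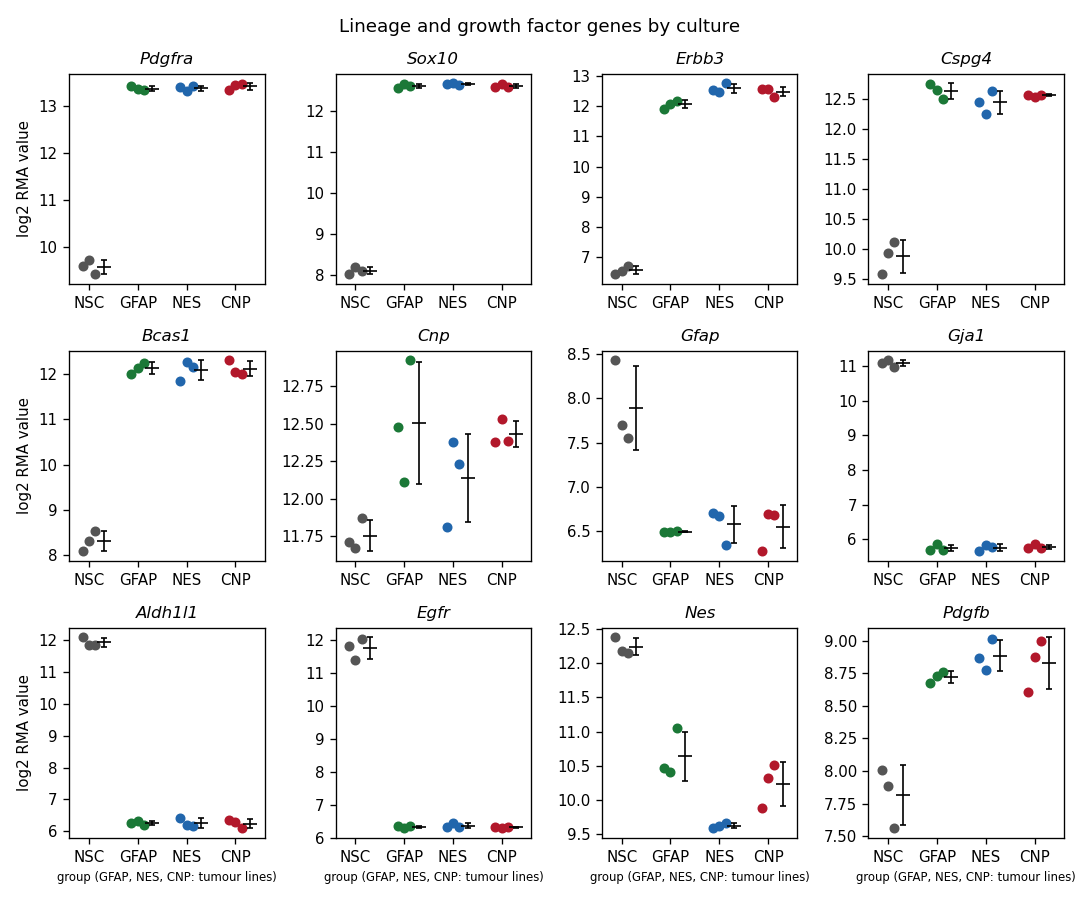
Log2 values of 12 genes in each of the 12 arrays (points), by group, with the group mean and SD beside them (bar and whiskers, n = 3); each panel has its own vertical scale. Pdgfra, Sox10, Erbb3, Cspg4, Bcas1 and Cnp are higher and Gfap, Gja1, Aldh1l1, Egfr and Nes lower in all 3 mGC3_CNP arrays than in all 3 NSC arrays, and for most of them the tumour groups lie close together.

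By the naming rule, the largest rises besides Erbb3 were of matrix, receptor and guidance genes, all of them lower bounds. Hapln1, which encodes a protein that links hyaluronan to proteoglycans, read 11.92, 9.02 and 10.90 against 4.58, 4.68 and 4.84, and rose by at least 5.91 ± 0.60. Its mGC3_CNP values spread widely, with an SD of 1.47, but none came near the NSC values. Acan, the proteoglycan aggrecan, rose by at least 4.78 ± 0.16, the AMPA receptor subunit gene Gria4 by at least 5.20 ± 0.17 and the semaphorin gene Sema3d by at least 5.17 ± 0.35. Capn6 (at least 5.48 ± 0.17), the forkhead factor gene Foxf1 (at least 5.24 ± 0.20) and the secreted carbonic anhydrase gene Car6 (at least 5.07 ± 0.21) complete the rule.

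The largest falls were of Fndc3c1 (at least 6.71 ± 0.12 lower), the interferon-inducible gene Ifitm3, the astrocytic folate enzyme gene Aldh1l1, the laminin receptor subunit gene Itga6, Egfr, the gap junction gene Gja1, the LIM protein gene Crip2 and Tmem47. Ifitm3 read 4.54, 4.58 and 4.93 against 11.79, 10.76 and 11.19, and fell by at least 6.56 ± 0.24. Crip2 was the only gene of this set whose lower mean was above 7.42, and it fell by 5.08 ± 0.28, reading 8.34 in replicate 1 against 6.90 and 7.25 in the others. For none of these 16 genes was the mGC3_CNP level called different from the mean of the other tumour groups. Tmem47 was lower than in NSC by at least 4.94 in mGC3_CNP, by 2.65 in mGC1_GFAP and by at least 5.10 in mGC2_NES (measured difference from the mean of both -1.06 ± 0.37, adjusted p = 0.412).

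Lineage lists were counted next, beside the share of all probe sets called higher (14.9%) or lower (15.5%) and a median difference over all probe sets of -0.01. Genes said to lead the falls of a list are those with the smallest p, not the largest size. Among 19 measured genes of oligodendrocyte precursors, 14 rose, 0 fell and 5 were not called, with a median of 1.73. Besides Sox10 and Pdgfra, the synapse organiser gene C1ql1 (4.22 ± 0.18) and Cspg4 (2.68 ± 0.13) had the smallest p. Olig1 and Olig2 were already high in NSC: Olig1 read 12.99, 12.96 and 12.97 there and 12.88, 12.97 and 13.03 in mGC3_CNP, a difference of -0.01 ± 0.07. The 3 others not called were Tmem100, Ptprz1 and Emid1. Averaged over the list, the mGC3_CNP arrays read 11.72 to 11.98 and the NSC arrays 9.72 to 9.94. The list medians against NSC were 1.64 in mGC1_GFAP and 2.29 in mGC2_NES.

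Of the differentiated oligodendrocyte list, 11 of 19 rose, 2 fell (Mobp and Aspa) and 6 were not called, with a median of 1.39. Those that rose include genes of early differentiation. Bcas1, a marker of newly forming oligodendrocytes, rose by 3.83 ± 0.14, reading 12.31, 12.06 and 12.01 against 8.08, 8.31 and 8.52. The galactolipid enzyme genes Ugt8a (2.58 ± 0.10) and Gal3st1 (2.51 ± 0.10) rose, as did the fatty acid hydroxylase gene Fa2h (at least 3.80 ± 0.18). The late myelin gene Mog read 6.62, 6.68 and 6.47 against 6.43, 6.62 and 6.61, all in the range of absent transcripts. Mag, Cldn11, Opalin, Ermn and Enpp4 were not called either.

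Of the astrocyte list, 4 of 18 rose, 10 fell and 4 were not called (median -1.16). Gja1 read 5.75, 5.86 and 5.75 against 11.10, 11.16 and 10.98 and fell by at least 5.29 ± 0.08, Aldh1l1 by at least 5.68 ± 0.10 and Mlc1, an astrocyte membrane protein gene, by at least 4.07 ± 0.17. S100b, which oligodendrocyte lineage cells also make, went the other way and rose by at least 4.71 ± 0.14. Of the neural stem cell list, 0 of 15 rose, 12 fell and 3 were not called (median -1.43). Besides Egfr these were led by the adhesion molecule gene Vcam1 (at least 3.33 ± 0.09 lower), Prom1 (at least 1.64 ± 0.12 lower) and the nuclear receptor gene Nr2e1 (1.66 ± 0.13 lower). The counts of these 4 lists were the same without mGC3_CNP replicate 1, at 14 and 0, 11 and 2, 4 and 10, and 0 and 12 for rises and falls.

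Mean levels of the microglial, endothelial and pericyte lists were below 7.42 in both groups, while that of the neuronal list was above it. Among 13 microglia and macrophage genes 0 rose and 2 fell, and their mean level was 6.52 to 6.59 in mGC3_CNP and 6.62 to 6.72 in NSC. In each group 3 of the 13 had a mean above 7.42, and P2ry12, a defining microglial gene, was at 5.48, 5.66 and 5.90 in mGC3_CNP. Among 10 endothelial genes 1 rose and 1 fell, at mean levels of 6.67 to 6.84 and 6.70 to 6.75. Among 12 genes of pericytes and fibroblasts 2 rose and 2 fell, at 7.05 to 7.12 and 7.01 to 7.13. Single members were high: Mcam, an adhesion gene of this list, read 12.42, 12.57 and 12.58 against 9.18, 8.99 and 9.42, a rise of 3.33 ± 0.13, while the smooth muscle actin gene Acta2 fell, from 10.07, 9.60 and 10.14 in NSC to 6.87, 7.15 and 7.09. Among 20 genes of neuroblasts and neurons 4 rose and 4 fell, at mean levels of 8.05 to 8.30 and 7.92 to 8.40, with 14 and 11 of the 20 above 7.42. The interneuron factor genes Dlx2 (1.71 ± 0.20 lower) and Dlx1 (at least 1.37 ± 0.18 lower) led the falls. These cultures are bulk samples, in which fewer cells of a type and less RNA per cell cannot be told apart. Without mGC3_CNP replicate 1 the rises and falls were 0 and 2, 1 and 2, 1 and 2, and 4 and 4 in the order given.

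**Figure D2:**
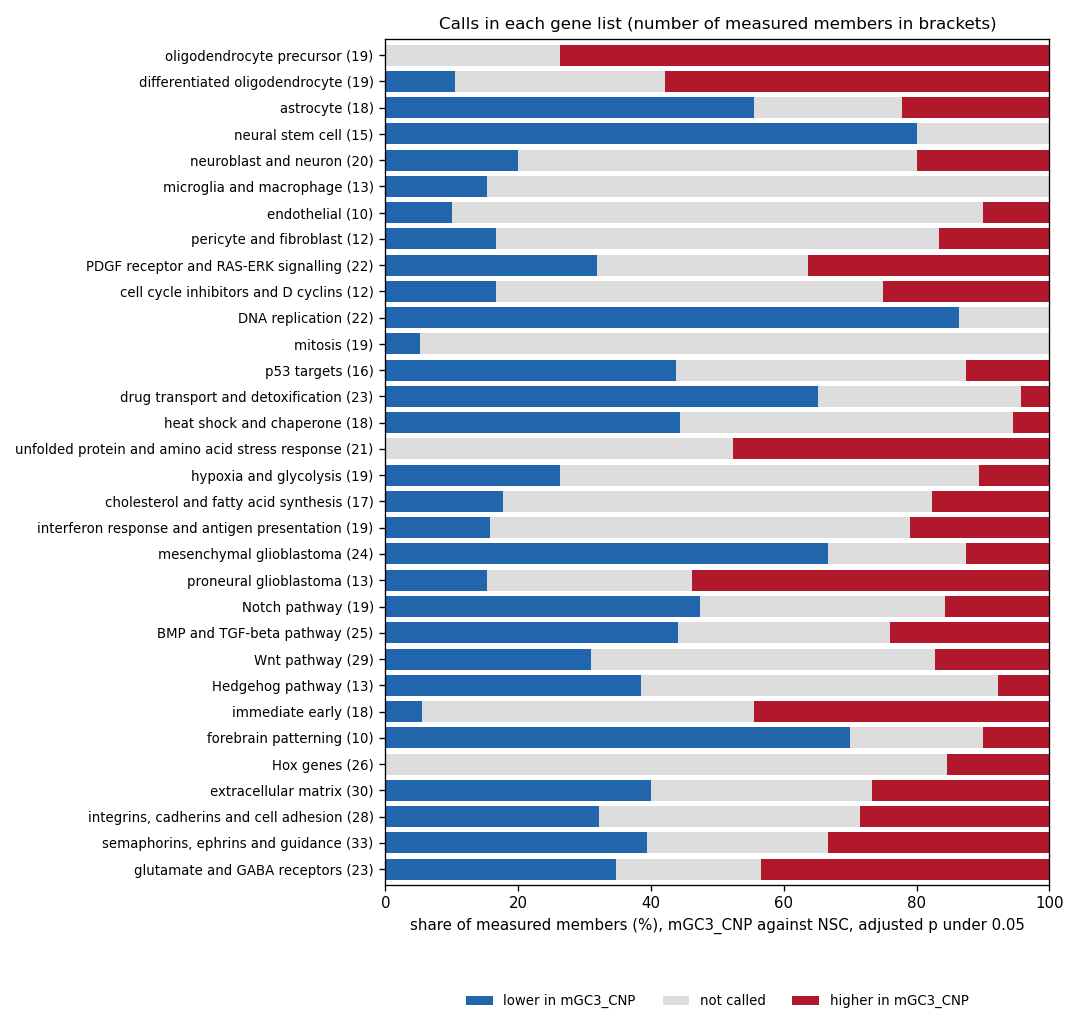
For each of 32 gene lists, the share of measured members called lower (blue), not called (grey) or called higher (red) in mGC3_CNP against NSC, in percent on a horizontal axis from 0 to 100, with the number measured in brackets. Over all probe sets 15.5% were called lower and 14.9% higher. Falls fill most of the DNA replication bar (19 of 22) and the neural stem cell bar (12 of 15), and rises most of the oligodendrocyte precursor bar (14 of 19).

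Growth factor signalling changed in both directions. Of the PDGF receptor and RAS-ERK list, 8 of 22 rose, 7 fell and 7 were not called (median -0.01). Erbb3, Pdgfra and Pdgfb rose and Egfr and the FGF receptor gene Fgfr1 (1.10 ± 0.12 lower) fell. Of the immediate early list, 8 of 18 rose, 1 fell and 9 were not called (median 0.25). Nr4a1, a nuclear receptor gene induced within minutes of a stimulus, read 12.30, 11.88 and 11.93 against 9.18, 9.37 and 9.70 and rose by 2.62 ± 0.15. Egr2 (2.16 ± 0.18), Fos (1.67 ± 0.22) and Nr4a3 (at least 1.74 ± 0.22) rose with it, and Nr4a2 of the same family did not. Without replicate 1, 9 rose and 6 fell in the first list, and 7 rose and 1 fell in the second.

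Developmental signalling lists had more falls than rises. Of the Notch list, 3 of 19 rose and 9 fell (median -0.59), with the fringe glycosyltransferase genes Lfng (at least 4.76 ± 0.13) and Mfng (at least 1.75 ± 0.16) and the receptor gene Notch1 (0.94 ± 0.12) lower and the ligand gene Jag1 higher by 1.58 ± 0.15. Of the BMP and TGF-beta list, 6 of 25 rose and 11 fell (median -0.05). The BMP receptor gene Bmpr1b fell by at least 3.17 ± 0.11, while the ligand gene Bmp7 rose by 3.04 ± 0.16. Of the Wnt list, 5 of 29 rose and 9 fell (median -0.05), the latter led by the feedback inhibitor genes Nkd1 (1.69 ± 0.10) and Axin2 (1.12 ± 0.07) and the ligand gene Wnt5a (at least 2.70 ± 0.19), while the receptor gene Fzd9 rose by 1.93 ± 0.16. Of the Hedgehog list, 1 of 13 rose and 5 fell (median -0.22), among them the ligand gene Dhh (at least 1.97 ± 0.10), the signal transducer gene Smo (1.15 ± 0.13) and the effector gene Gli2 (at least 1.09 ± 0.12). Without replicate 1 the rises and falls were 3 and 9, 6 and 10, 4 and 9, and 2 and 5.

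Of the DNA replication list, 0 of 22 rose, 19 fell and 3 were not called, against a background of 15.5% called lower, and 18 fell without replicate 1. The falls were small. Rrm2, the small subunit of ribonucleotide reductase, read 11.66, 11.24 and 11.32 against 12.50, 12.59 and 12.52 and fell by 1.13 ± 0.12, and Gins2 fell by 0.84 ± 0.10, Orc1 by 0.80 ± 0.11 and E2f1 by 0.63 ± 0.09. The list median was -0.41 in mGC3_CNP, -0.20 in mGC1_GFAP and -0.82 in mGC2_NES. Of the mitosis list, 0 of 19 rose, 1 fell (Top2a, a topoisomerase gene with both means below 7.42) and 18 were not called, and the count was the same without replicate 1. Of the cell cycle inhibitor and D cyclin list, 3 of 12 rose and 2 fell, with and without replicate 1. The kinase gene Cdk6 fell by at least 3.42 ± 0.12, and the cyclin gene Ccnd3 rose by 1.23 ± 0.08. Ccnd2, another D cyclin, read 8.43 in replicate 1 against 11.15 and 11.59 in replicates 2 and 3 and 12.82, 12.81 and 12.85 in NSC (fall of 2.44 ± 0.65).

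Stress and metabolic lists parted. Among 23 genes of drug transport and detoxification 1 rose and 15 fell (median -0.63), with the glutathione transferase genes Gsta4 (at least 4.23 ± 0.16) and Gstm1 (4.08 ± 0.25), the quinone reductase gene Nqo1 (at least 2.31 ± 0.15) and the cystine transporter gene Slc7a11 (at least 3.76 ± 0.36) lower. Of the heat shock and chaperone list, 1 of 18 rose and 8 fell (median -0.34), led by the collagen chaperone gene Serpinh1 (at least 2.65 ± 0.11). In this list 6 of the 18 genes had several probe sets, of which that with the smallest p was counted. Of the unfolded protein and amino acid stress list, 10 of 21 rose and 0 fell (median 0.34), among them Vldlr (1.20 ± 0.14), Xbp1 (0.86 ± 0.11), Herpud1 (0.87 ± 0.11) and Sdf2l1 (0.67 ± 0.11). Of the p53 target list, 2 of 16 rose and 7 fell, with the death receptor genes Tnfrsf10b (at least 1.88 ± 0.25) and Fas (at least 1.11 ± 0.19, both means below 7.42) and the antiproliferative gene Btg2 (1.53 ± 0.23) lower and the ribonucleotide reductase gene Rrm2b higher by 0.52 ± 0.09. Of the hypoxia and glycolysis list, 2 of 19 rose and 5 fell, of the cholesterol and fatty acid list 3 of 17 rose and 3 fell, and of the interferon list 4 of 19 rose and 3 fell, shares that are near those of all probe sets. Without replicate 1 the rises and falls of these 7 lists were 1 and 13, 1 and 9, 10 and 0, 1 and 7, 3 and 4, 4 and 1, and 4 and 3.

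Of the mesenchymal glioblastoma list, 3 of 24 rose and 16 fell (median -1.14), with the fibronectin receptor subunit gene Itga5 (at least 2.52 ± 0.11), the apoptosis gene Casp8 (at least 3.95 ± 0.21) and S100a11 (4.85 ± 0.33) lower and Chil1, a chitinase-like gene, higher by at least 3.26 ± 0.16. Of the proneural list, 7 of 13 rose and 2 fell (median 1.20), and several of its members, Sox10, Pdgfra and Nkx2-2 among them, also belong to the precursor list. Of the forebrain patterning list, 1 of 10 rose and 7 fell (median -1.11). Gsx2 (at least 1.71 ± 0.09 lower) and Otx1 (1.55 ± 0.11 lower) had the smallest p. Of the Hox list, 4 of 26 rose, a share near that of all probe sets, and 0 fell (median 0.04). All 4 lie in the Hoxa cluster: Hoxa5 (at least 3.04 ± 0.12), Hoxa3 (at least 1.69 ± 0.10), Hoxa4 (1.15 ± 0.13) and Hoxa2 (0.62 ± 0.07, both means below 7.42). Without replicate 1 the rises and falls were 3 and 15, 7 and 3, 1 and 6, and 4 and 0.

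Genes of the cell surface, matrix and receptors made up the rest of the lists. Of the extracellular matrix list, 8 of 30 rose and 12 fell, with the laminin genes Lamb1 (at least 2.79 ± 0.15) and Lamb2 (at least 1.88 ± 0.08) lower and Lama4 (3.09 ± 0.18) higher. Of the adhesion list, 8 of 28 rose and 9 fell. The integrin subunit gene Itga9 rose by 3.41 ± 0.18, while Itga6 and Itga7 (at least 3.86 ± 0.22) fell. Of the guidance list, 11 of 33 rose and 13 fell, and the netrin receptor gene Unc5c, which had the smallest p, read 11.54, 11.48 and 11.44 against 7.21, 7.47 and 7.61 and rose by 4.06 ± 0.09. The semaphorin genes Sema3d and Sema3c (at least 2.45 ± 0.16 lower) went in opposite directions. Of the glutamate and GABA receptor list, 10 of 23 rose and 8 fell, with the kainate receptor genes Grik3 (2.08 ± 0.14) and Grik4 (2.01 ± 0.11) higher and the metabotropic receptor gene Grm3 (at least 3.37 ± 0.25) lower. Without replicate 1 the rises and falls were 9 and 11, 10 and 9, 11 and 13, and 11 and 8.

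The main question was which of these changes were larger, smaller or opposite in mGC3_CNP. The changes of the 3 tumour groups share the NSC arrays, so the values are given side by side and the difference itself was tested as mGC3_CNP minus the mean of mGC1_GFAP and mGC2_NES, from which the NSC mean cancels. Few changes differed. Of 21780 probe sets 9 were called (0.0413%), 3 higher and 6 lower in mGC3_CNP, while 2022 (9.28%) had an unadjusted p under 0.05, 1010 of them higher and 1012 lower. Of the 9 genes, 3 changed more than the mean of the other groups (Mlst8, H2-T10 and Cfap20). Another 5 changed less than that mean (Rerg, Nr4a2, Cnmd, Mitf and Gucy2f), and 1 changed in the opposite direction (Syt12). For 7 of the 9 the mGC3_CNP arrays did not overlap the 6 other tumour arrays, as was so for 3.89% of all probe sets. Cfap20 and Gucy2f did overlap and are named after their values were seen.

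The test had the precision to bound most measured differences. The median width of the 95% interval to either side of the difference was 0.18. For 21306 probe sets (97.8%), and for 6415 of the 6603 called against NSC (97.2%), the interval lay within a 2-fold difference in either direction. For 5 probe sets it lay wholly beyond 2-fold. These counts include probe sets with means at or below 7.42. There the measured difference can be smaller than the true one, and its interval does not bound the latter.

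**Figure D3:**
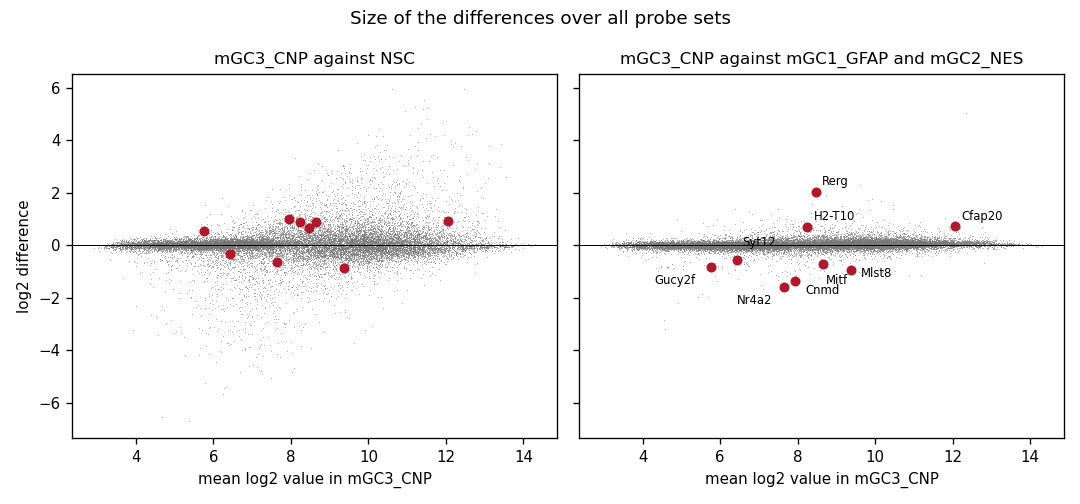
Log2 differences of mGC3_CNP from NSC (left) and from the mean of mGC1_GFAP and mGC2_NES (right) against the mean log2 value in mGC3_CNP, 1 point per probe set, with the same vertical scale. The 9 genes called in the right panel are marked in red in both. Differences from NSC spread from -6.71 (Fndc3c1) to 5.91 (Hapln1), while differences from the other tumours are mostly near 0.

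Among genes that changed more, Mlst8 encodes a subunit of the mTOR kinase complexes. It read 9.37, 9.11 and 9.62 in mGC3_CNP, 9.99, 10.29 and 10.38 in NSC and 10.01 to 10.58 in the other tumour arrays. All 3 mGC3_CNP arrays lay below all 9 others. It differed from NSC by -0.85 in mGC3_CNP (adjusted p = 0.000592), 0.23 in mGC1_GFAP and -0.06 in mGC2_NES, and the tested difference was -0.93 ± 0.12 (adjusted p = 0.0234, 95% interval -1.19 to -0.67). H2-T10, a class I histocompatibility gene with similar neighbours that a probe set may not tell apart, read 8.19, 8.20 and 8.34 in mGC3_CNP and 7.40, 7.38 and 7.32 in NSC. It was higher than NSC by at least 0.88 in mGC3_CNP and by at least 0.44 in mGC1_GFAP, and differed from it by -0.11 in mGC2_NES (tested difference 0.72 ± 0.09, adjusted p = 0.0234). Again no mGC3_CNP array overlapped any other array. Cfap20, a cilia gene, read 12.02, 11.91 and 12.26 against 11.11, 11.06 and 11.28 in NSC. Its difference from NSC was 0.91 in mGC3_CNP, 0.67 in mGC1_GFAP and -0.28 in mGC2_NES (tested difference 0.72 ± 0.10, adjusted p = 0.0455), and mGC1_GFAP replicate 3 at 11.93 overlapped the mGC3_CNP arrays. Against mGC1_GFAP alone it was not called (adjusted p = 0.411).

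Rerg, a RAS-like gene named as an estrogen-regulated growth inhibitor, was the gene that fell in the other tumours and not in mGC3_CNP. It read 7.94, 8.64 and 8.80 in mGC3_CNP and 6.32 to 6.51 in the other tumour arrays, which is in the range of absent transcripts. The NSC cultures read 8.68, 7.18 and 7.55, with the C/tv-a culture at the level of the mGC3_CNP arrays. The difference from NSC was 0.66 in mGC3_CNP (adjusted p = 0.153). Rerg fell by at least 1.37 in mGC1_GFAP and by at least 1.38 in mGC2_NES, and mGC3_CNP was at least 2.03 ± 0.27 above the other groups (adjusted p = 0.0332). With each tumour group set against the NSC culture of its own line, the measured difference was smaller, at 0.72. Only its size is given, since each line then has 1 NSC culture.

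Nr4a2, the orphan nuclear receptor gene also called Nurr1, is an immediate early gene and rose in the other tumours. It read 7.15, 7.59 and 8.19 in mGC3_CNP, 8.19, 8.34 and 8.27 in NSC and 8.73 to 9.64 in the other tumour arrays. The difference from NSC was -0.63 in mGC3_CNP (adjusted p = 0.0697), 1.21 in mGC1_GFAP and 0.72 in mGC2_NES, and the tested difference was -1.59 ± 0.21 (adjusted p = 0.0251). Its relatives did not share this: the tested difference was 0.20 ± 0.13 for Nr4a1 and 0.14 ± 0.19 for Nr4a3, neither of them called. Nr4a2 was the only member of any of the 32 lists called against the other tumour groups, among 598 distinct genes measured in them. Of those 598, 66 had an unadjusted p under 0.05 for this difference, a share near the 9.28% of all probe sets.

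Mitf, the melanocyte lineage transcription factor gene, rose less. It read 8.43, 8.72 and 8.79 in mGC3_CNP, 7.72, 7.76 and 7.75 in NSC and 9.26 to 9.48 in the other tumour arrays, so that the mGC3_CNP arrays lay between both sets without overlap. The difference from NSC was 0.90 in mGC3_CNP, 1.59 in mGC1_GFAP and 1.63 in mGC2_NES (tested difference -0.71 ± 0.08, adjusted p = 0.0234). Cnmd, which encodes the cartilage protein chondromodulin, read 8.13, 7.95 and 7.75 against 7.10, 6.80 and 6.92 in NSC. It rose by at least 1.00 in mGC3_CNP, at least 1.43 in mGC1_GFAP and at least 3.25 in mGC2_NES (tested difference -1.33 ± 0.16, adjusted p = 0.0234). The difference came mostly from mGC2_NES, since against mGC1_GFAP alone the adjusted p was 0.362.

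The remaining calls were of dim probe sets, whose called differences are lower bounds in size. Gucy2f, a retinal guanylate cyclase gene, read 5.74, 5.82 and 5.74 in mGC3_CNP and rose above 7.42 only in mGC2_NES, at 7.69 to 7.82 (tested difference -0.82 ± 0.07, adjusted p = 0.00502). Its measured difference from NSC was 0.55 in mGC3_CNP, 0.19 in mGC1_GFAP and 2.54 in mGC2_NES. Against mGC1_GFAP alone the measured difference was 0.36, with mGC3_CNP higher, and was not called (adjusted p = 0.0984). Syt12, a synaptotagmin family gene, read 6.35, 6.50 and 6.44 in mGC3_CNP and 6.76, 6.70 and 6.76 in NSC. It was the opposite case, with differences from NSC of -0.31 in mGC3_CNP, 0.14 in mGC1_GFAP and 0.32 in mGC2_NES (tested difference -0.54 ± 0.07, adjusted p = 0.0234). All its group means lie below 7.42, so its presence was not shown.

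**Figure D4:**
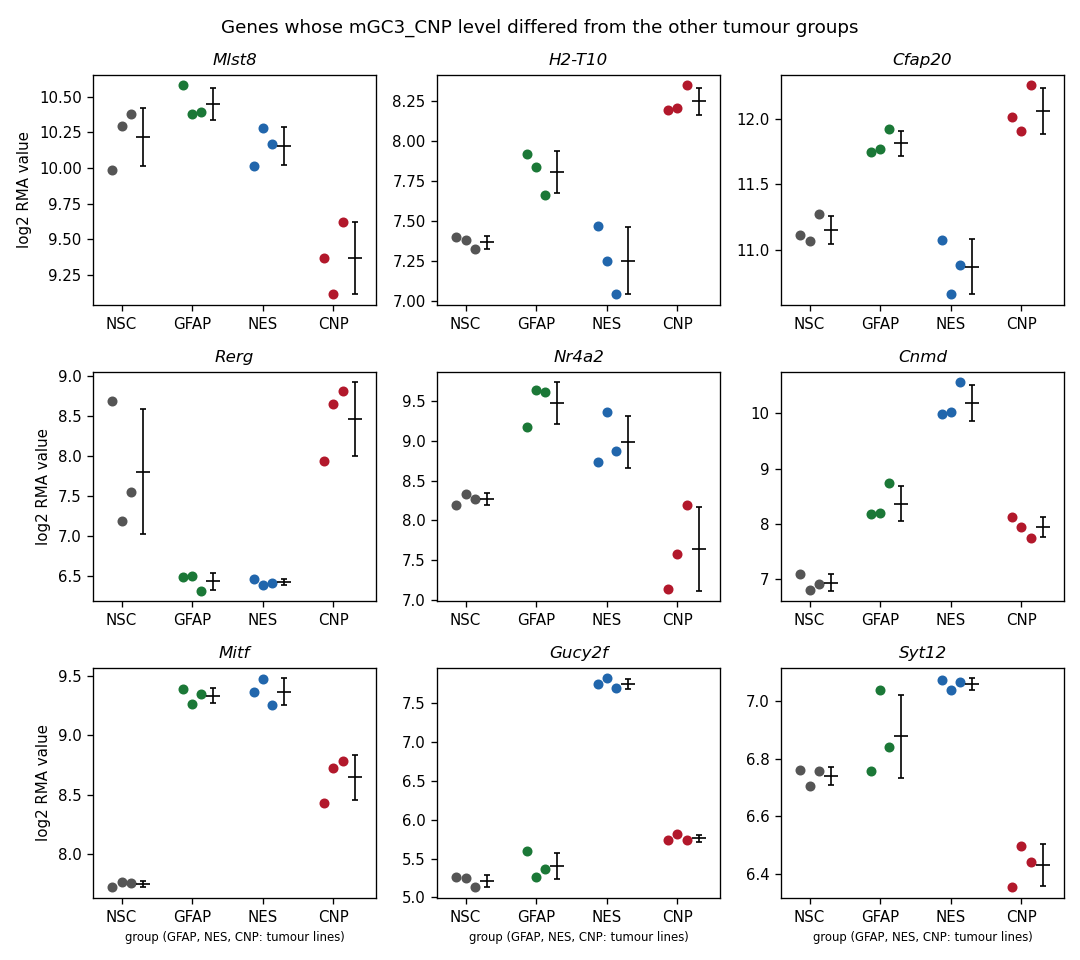
Log2 values in each of the 12 arrays (points), by group, for the 9 genes whose mGC3_CNP level was called different from the mean of mGC1_GFAP and mGC2_NES, with the group mean and SD beside them (n = 3); each panel has its own vertical scale. The mGC3_CNP points lie below all other tumour points for Mlst8, Nr4a2, Cnmd, Mitf and Syt12 and above them for Rerg and H2-T10. For Gucy2f they lie within the range of the other tumour points, and for Cfap20 they lie above it or at its upper end.

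When each of the 12 arrays was left out in turn, the call of Gucy2f was kept 12 times, that of Mitf 11 times and that of Cnmd 10 times. Syt12 kept it 7 times, Mlst8, H2-T10 and Nr4a2 5 times each, and Rerg and Cfap20 3 times each. The adjusted p reached 0.192 for Rerg and 0.195 for Cfap20, both without mGC3_CNP replicate 3. Across these fits the size ran from 1.86 to 2.29 for Rerg and from -1.86 to -1.34 for Nr4a2. With the replicate number as a block, Mlst8 (adjusted p = 0.071) and Rerg (adjusted p = 0.0885) lost their calls. Without mGC3_CNP replicate 1, 9 probe sets were again called, but only 4 of them were the same (Cnmd, Mitf, Rerg and Gucy2f). The others were Kcnk13, Ppp1r1a, Pcp4, Arfgef2 and Fgf13, named after their values were seen. Of these, Pcp4 had the largest size at -1.73 ± 0.16 (adjusted p = 0.00659).

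Comparing mGC3_CNP with each other tumour group separately gave 65 probe sets called against mGC1_GFAP (0.298%) and 96 against mGC2_NES (0.441%). Both comparisons called 7, of which 6 had the same sign: Mlst8, Syt12, Nr4a2, Mitf, Rerg and the actin-binding gene Ablim1. The seventh was Tgfb2, a TGF-beta ligand gene, which was 1.03 higher in mGC3_CNP than in mGC1_GFAP and 1.14 lower than in mGC2_NES.

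The NSC cultures entered the test through the common estimate of spread, and they differ by line. Fitted on the 9 tumour arrays alone, 41 probe sets (40 genes) were called, which include all 9 above. By the same definitions 19 of them changed more in mGC3_CNP, 13 less, 1 in the opposite direction and 8 could not be placed. The examples that follow were chosen after their values were seen. Cryab, a small heat shock protein gene, fell less: it read 9.69, 10.01 and 9.79 in mGC3_CNP and 11.87, 10.26 and 11.87 in NSC, and was lower than NSC by 2.96 in mGC1_GFAP and 3.45 in mGC2_NES. Stk10, a kinase gene, rose in the other groups (1.18 and 0.91) and differed from NSC by 0.08 in mGC3_CNP. Npl, a sialic acid lyase gene, was lower than NSC by 1.60 in mGC3_CNP, 3.78 in mGC1_GFAP and 2.02 in mGC2_NES.

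In some of these genes the NSC cultures differed too. The ribosomal protein gene Rps21, which has near-identical copies, was lower than NSC by 1.24 in mGC3_CNP and differed from it by 0.03 and 0.06 in the other groups, but the C/tv-a NSC culture itself read 10.78 against 11.94 and 11.78. Tnks1bp1, which encodes a tankyrase-binding protein, read 7.95 on average in mGC3_CNP and 7.79, 9.10 and 8.91 in the NSC cultures, again with the C/tv-a culture at the tumour level. In 25 of the 41 probe sets (61.0%) the C/tv-a culture lay beyond both other NSC cultures on the side on which mGC3_CNP lay beyond the other tumours, against 32.0% of all probe sets. Leaving the NSC arrays out of the estimate of spread lets in probe sets on which the NSC cultures vary widely. With each tumour group set against the NSC culture of its own line, the difference kept its sign in 36 of the 41 but was less than 50% of its size in 18 of those, and it turned in 5, Tnks1bp1 (0.06) among them. These are values from 1 NSC culture per line, given without a test, and line and promoter cannot be told apart.

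Some list members had sizeable differences from the other tumours that were not called. Hes1, a Notch target, differed from NSC by -0.60 in mGC3_CNP, -2.23 in mGC1_GFAP and -1.34 in mGC2_NES (tested difference 1.18 ± 0.28, adjusted p = 0.197). Id1, a BMP target, read 8.80, 7.91 and 8.42 and fell by 1.52, against 2.21 and 2.06 in the other groups (0.62 ± 0.16, adjusted p = 0.228). Hoxa5 read 9.93, 9.91 and 9.98, higher than NSC by at least 3.04, against at least 2.44 and 2.50 (0.57 ± 0.11, adjusted p = 0.107), and its mGC3_CNP arrays lay above all other tumour arrays. Vcan, the proteoglycan versican of precursors, read 12.18, 12.05 and 12.20 and rose by 1.73 ± 0.49, against 0.34 and 1.05 (1.04 ± 0.42, adjusted p = 0.491). Nrxn3, a synaptic adhesion gene, rose by 0.83, against 1.08 and 1.66 (-0.54 ± 0.11, adjusted p = 0.119).

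Promoter sequences are shown for the genes of transcription factors that rose in the other tumours and less or not in mGC3_CNP, Nr4a2 and Mitf. Both are textbook targets of the cAMP response factor CREB, and the search for its motif was chosen after their values were seen. Windows were examined singly only for called genes, so those of other CREB targets were not looked at. Nr4a1 and Nr4a3, the relatives of Nr4a2, rose in mGC3_CNP and were not called in this difference. A part of CREB in these values was not tested. The 250 bases before each start were taken from RefSeq on GRCm38.p6, which held 6 of the 9 called genes. The full motif TGACGTCA and the short motif TGACG or its reverse complement CGTCA, of which the full motif holds both, were searched on both strands and are in capitals. The start of Nr4a2 lies on chromosome 2 on the minus strand (chr2:57124004-57124253). Mitf has 3 starts in the table on the plus strand of chromosome 6, of which only the last (chr6:97991533-97991782) held a motif.

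Nr4a2: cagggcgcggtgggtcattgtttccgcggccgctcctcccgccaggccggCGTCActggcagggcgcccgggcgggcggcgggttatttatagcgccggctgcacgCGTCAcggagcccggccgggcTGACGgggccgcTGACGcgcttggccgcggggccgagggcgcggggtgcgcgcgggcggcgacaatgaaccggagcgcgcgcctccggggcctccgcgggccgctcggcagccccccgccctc
Mitf: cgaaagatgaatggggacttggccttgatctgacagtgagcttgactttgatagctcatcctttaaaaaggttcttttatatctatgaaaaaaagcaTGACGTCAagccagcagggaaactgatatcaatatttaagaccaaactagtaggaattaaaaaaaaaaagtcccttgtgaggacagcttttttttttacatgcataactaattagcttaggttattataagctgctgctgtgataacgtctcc

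The Nr4a2 window held 4 short motifs, starting at bases 51, 107, 128 and 140 counted from its 5′ end, and no full motif. The Mitf window held the full motif from base 98. Of 32851 windows of this length, 17.8% held at least 1 short motif, 0.137% held at least 4, and 1.55% held the full motif. The windows of Mlst8, Cfap20, Cnmd and Gucy2f held none of these motifs. Each motif holds the pair CG, which occurred 44 times in the Nr4a2 window and 0 to 17 times in the windows of the other called genes. The shares over all windows were not matched for this number. A match is a description of the letters in the window, and the array does not tell the Mitf starts apart.

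Single tumour arrays differed from the others by chromosome, the replicate 1 array of mGC3_CNP among them. In that array the median difference from the NSC mean was -0.29 over 416 probe sets of chromosome 14, against -0.12 to 0.01 in the other 8 tumour arrays, and 0.17 over 937 probe sets of chromosome 7, against -0.05 to -0.01. On chromosome 15 it was 0.18, against 0.22 to 0.30 in the other tumour arrays, so that all 9 tumour arrays lay above 0 there. On chromosome 14, replicate 1 was the lowest of the 3 mGC3_CNP arrays for 71.4% of probe sets, and on chromosome 7 the highest for 64.5%. In mGC1_GFAP, replicate 1 stood apart at 0.18 on chromosome 6 and 0.14 on chromosome 17, where the highest of the other tumour arrays read 0.05 and 0.02, and replicates 1 and 3 read 0.12 and 0.13 on chromosome 11. Mitf and Rerg lie on chromosome 6, and Mlst8 and H2-T10 on chromosome 17. Of the genes above, Cnmd lies on chromosome 14 and read highest in replicate 1, while Ifitm3 and Acan lie on chromosome 7. The part of these chromosome values in single gene results was not tested.

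**Figure D5:**
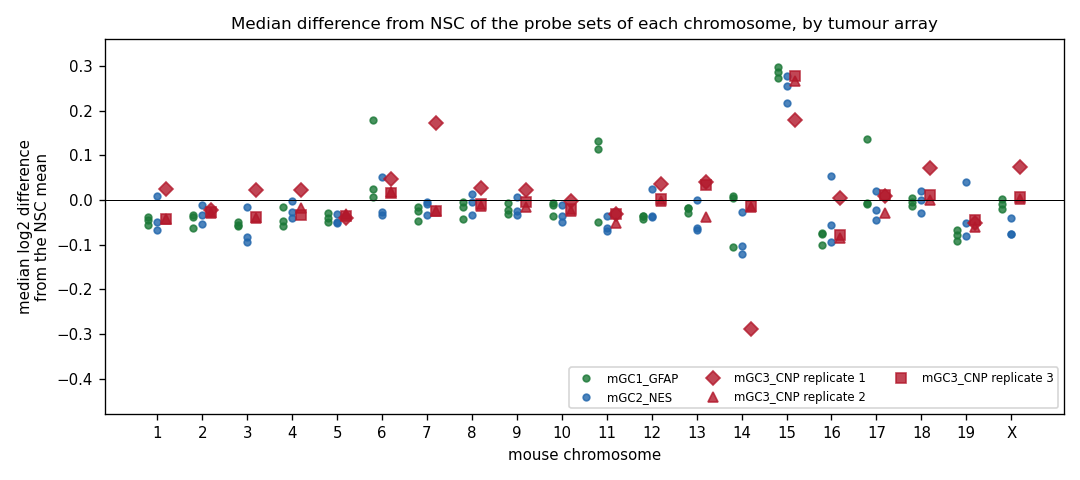
Median log2 difference from the NSC mean over the probe sets of each mouse chromosome, for each of the 9 tumour arrays, with the mGC3_CNP replicates marked by a diamond (1), a triangle (2) and a square (3). Replicate 1 lies at -0.29 on chromosome 14 and at 0.17 on chromosome 7, away from the other arrays, 1 mGC1_GFAP array lies apart on chromosomes 6 and 17, and all 9 arrays lie between 0.18 and 0.30 on chromosome 15.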

How the data were processed

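RNA from 12 cultures was measured on Affymetrix whole-transcript mouse arrays, 1 array per culture. Per the submitters' processing notes, Expression Console (Affymetrix) was run with RMA, and the deposited values are on a log2 scale. RMA sets all arrays to 1 distribution, which hides any change common to most genes. No version of that software was given in the sources used. Values were used as deposited, without a filter on low values.

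The platform annotation listed 23397 of 28270 probe sets: 21780 with 1 gene symbol, 1617 with several, and 4873 were not listed. Gene identifiers of 21689 matched RefSeq (GRCm38.p6) and 91 did not. Tests used limma 3.58.1 in R 4.3.3, with 4 group means over all 12 arrays (8 residual degrees of freedom), two-sided, with Benjamini-Hochberg adjustment over 21780 probe sets. A change was larger where the difference from the other tumours and the change from NSC were both called with the same sign. It was smaller where the mean change of the other groups was called and opposite in sign to the difference, and opposite where both changes were called with opposite signs.

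Members and gene lists were chosen with earlier results of these data known. In 32 lists, 598 genes were measured. The text names the 8 largest rises and falls among called, non-overlapping genes, every gene of the 9 called between tumours that did not overlap, up to 4 called members of each list by smallest p, and Cnp, Gfap, Nes, Pdgfra, Pdgfb, Cdkn2a and Cdkn2b. Others named were chosen after their values were seen. No results are given for Xist and Y-linked genes, and predicted genes were not named. The exception is AA388235, whose name is of the predicted kind. Where a gene had several probe sets, that with the smallest p counted. This favours calls in the lists, and the shares over all probe sets had no such choice. The limit of 7.42 is the highest reading of Prm2, Tnp1, Tnp2 and Odf1. The fit was tested on simulated data. Alternatives were the leaving out of each array, rescaling, a filter on dim probe sets, another variance prior, array weights, a replicate block, fits on fewer arrays and the NSC culture of the own line.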

Additional observations from a re-analysis of the deposited data

Results flagged for a closer look

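All 9 genes called between mGC3_CNP and the mean of the other tumour groups are listed here because their change from NSC differed between groups by the test of the difference itself. The differences on the log2 scale were at least 2.03 for Rerg, 0.72 for H2-T10 and 0.72 for Cfap20, all higher in mGC3_CNP. They were -1.59 for Nr4a2, -1.33 for Cnmd, -0.93 for Mlst8 and -0.71 for Mitf, all lower in mGC3_CNP. The dim Gucy2f and Syt12 were also lower, and their measured differences, -0.82 and -0.54, are lower bounds in size. Groups of 3 arrays are too small for a test of single outlying samples.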

How the results depend on the processing

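None of the genes tested singly, 128 against NSC and 9 between tumours, turned its direction under any alternative run, but 5 of the 41 probe sets called on the tumour arrays alone did against the NSC culture of the own line. Leaving out each array in turn gave 5575 to 6642 calls against NSC, 2 (without mGC1_GFAP replicate 3) to 25 (without the C/tv-a NSC culture) against the other tumours, and 0 to 13 larger, 2 to 10 smaller and 0 to 2 opposite changes; without the N/tv-a NSC culture 24 were called. Array weights gave 35 calls against the other tumours, with 17 larger and 17 smaller changes. The tumour arrays alone gave 41. Against the NSC culture of the own line there were 4389 calls against NSC and 15 between tumours, 0 of them among the 9; each NSC arm is then 1 culture assumed to vary like the tumour groups, so these counts say nothing of stability. Leaving out dim probe sets, an alternative added after seeing the data because Prm1 voided the planned filter, gave 0 opposite changes. With a replicate block there were 6777 and 9 calls, 7 of the 9 the same, and 2 opposite changes. Deviations of same-numbered cultures correlated at 0.002 to 0.254, above 0 in all 9 pairs, and those of others at -0.194 to 0.134. The main fit did not pair cultures by number, and whether the numbers mark pairs was not tested. Over all pairs of a gene and an alternative, the 128 genes lost a call in 11 and gained one in 9, and the 9 genes called between tumours lost it in 58 and kept it in 121. Apart from the fixed genes, the 128 were picked for large size or small p, so their stability says little of the other calls. Dim probe sets carry bounds only.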

Other observations

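The spermatid transcript Prm1 was to mark the background together with Prm2, Tnp1, Tnp2 and Odf1, but read 13.49 in the G/tv-a NSC culture, against 7.15 in the C/tv-a and 7.21 in the N/tv-a culture and 7.13, 7.15 and 7.06 in the mGC3_CNP cultures. It was left out of the background limit, and its mGC3_CNP values lie in the range of the other spermatid transcripts.

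Among probe sets called on the tumour arrays alone, 2 had mGC2_NES apart from the other tumour groups and the N/tv-a NSC culture apart from the other NSC cultures. Trim13, a ubiquitin ligase gene, read 9.60 on average in mGC3_CNP and 9.54, 5.32 and 9.60 in the C/tv-a, N/tv-a and G/tv-a NSC cultures. It differed from the NSC mean by 1.65 in mGC1_GFAP and was lower by at least 3.29 in mGC2_NES, so that the N/tv-a tumours and the N/tv-a NSC culture were both low. In AA388235 the N/tv-a NSC culture was the high one at 8.94, against 4.87 and 4.98. Both genes were picked after their values were seen, and no test of line was possible with 1 NSC culture per line.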
